A study of Homo sapiens with 4 samples.

Results

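The Hippo pathway genes described here are the transcriptional coactivators YAP1 and WWTR1 (which encodes TAZ), their DNA-binding partner TEAD1, the kinases LATS1 and LATS2 that hold them in check, and the target genes CCN1 (CYR61) and CCN2 (CTGF). An m6A peak was assigned to one of these 7 genes when its summit lay inside the gene's window of hg19 positions, given in kb. In all, 24 of 21693 peaks were found, 10 of 9441 in the control library and 14 of 12252 in the METTL3 knockdown library.

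H1975 is an established human lung adenocarcinoma (LUAD) cell line, grown here in high-glucose DMEM. Cells carried a lentiviral control shRNA (NC-sh) or a lentiviral shRNA against METTL3 (METTL3-sh), the enzyme subunit that methylates adenosines of mRNA, for 48 h. Each condition had 1 Input library and 1 MeRIP library, made from RNA fragments pulled down with an m6A antibody, so no replicate could be compared and no p-value was computed, although the description of the series mentions replicates. The study lists 1 METTL3 shRNA, shown because it is what separates the groups:

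METTL3 shRNA: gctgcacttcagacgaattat

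The METTL3 level itself was not analysed here, since the peak lists hold no expression values. Every peak name carries the prefix H1299, which is a different lung cancer line from the H1975 of the sample labels. The labels were followed for the cell line and the conditions.

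In the Hippo pathway a chain of kinases ends in LATS1 and LATS2, which phosphorylate YAP and TAZ and keep them out of the nucleus. When the kinases are inactive, YAP and TAZ enter the nucleus, bind TEAD factors and switch on genes such as CCN1 and CCN2, which encode secreted proteins of the extracellular matrix. LATS2 is itself a known YAP target, and the pathway is often disturbed in lung cancer. METTL3 places m6A mainly in long internal exons and near stop codons, and reader proteins then act on the decay and translation of the marked mRNA.

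Each deposited peak comes with 3 values used here. Reads at the summit is the number of MeRIP reads covering the peak's highest point, recovered from the deposited pileup. The local expectation is the coverage that the Input library predicts at that place, and fold enrichment is pileup over this expectation, each with 1 added. The expectation is on the pileup scale, on which 1 MeRIP read counts 0.327 (NC-sh) or 0.364 (METTL3-sh), so reads cannot be divided by it. These steps were found for MeRIP reads only. Expectations such as 15 (NC-sh) and 10 (METTL3-sh), at the most enriched LATS1 peak, are not whole multiples of them. The steps therefore cannot turn an expectation into a number of Input reads. Over all pairs the expectation was 1.15 times as high in METTL3-sh at the median, with no correction for depth. All listed peaks had a fold enrichment above 6. The median peak of the whole list had a fold enrichment of 10.2 and 169 reads in NC-sh, and of 9.79 and 132 reads in METTL3-sh. Both reads and expectation follow the amount of the RNA, so reads at a summit cannot be read as methylation alone, and RNA per cell and the share of cells with the RNA cannot be told apart in bulk. Intervals on reads are exact 95% Poisson intervals and cover counting error only.

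Peaks were found in 4 of the 7 genes in NC-sh (TEAD1, LATS1, LATS2 and CCN2) and in 5 in METTL3-sh, where YAP1 was added. The kinases held most of them, 8 of 10 peaks in NC-sh and 8 of 14 in METTL3-sh. WWTR1 and CCN1 had no listed peak in either library. In NC-sh, 8 peaks had an overlapping partner and 2 (20%) did not, where 23.8% of all NC-sh peaks had none. In METTL3-sh, 8 had a partner and 6 (42.9%) did not, where 41.4% of all METTL3-sh peaks had none. Both shares were near those of the whole lists. In reads, 8 of 10 NC-sh and 11 of 14 METTL3-sh member peaks stood above the median of their list, and in fold enrichment 7 of 10 and 7 of 14 did. The member peaks were thus mostly well covered, with enrichment spread around the ordinary. Of the summits, 8 of 10 in NC-sh and 12 of 14 in METTL3-sh lay past the middle of the window, counted from its 5′ edge. These ran from just past it (YAP1, at 52% of the window) to near its 3′ edge (TEAD1, at 98.9%). The windows include introns, the same share over all peaks was not computed, and exons and UTRs were not analysed here. The summits of the 8 pairs lay 1 to 91 bp apart.

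**Figure D1:**
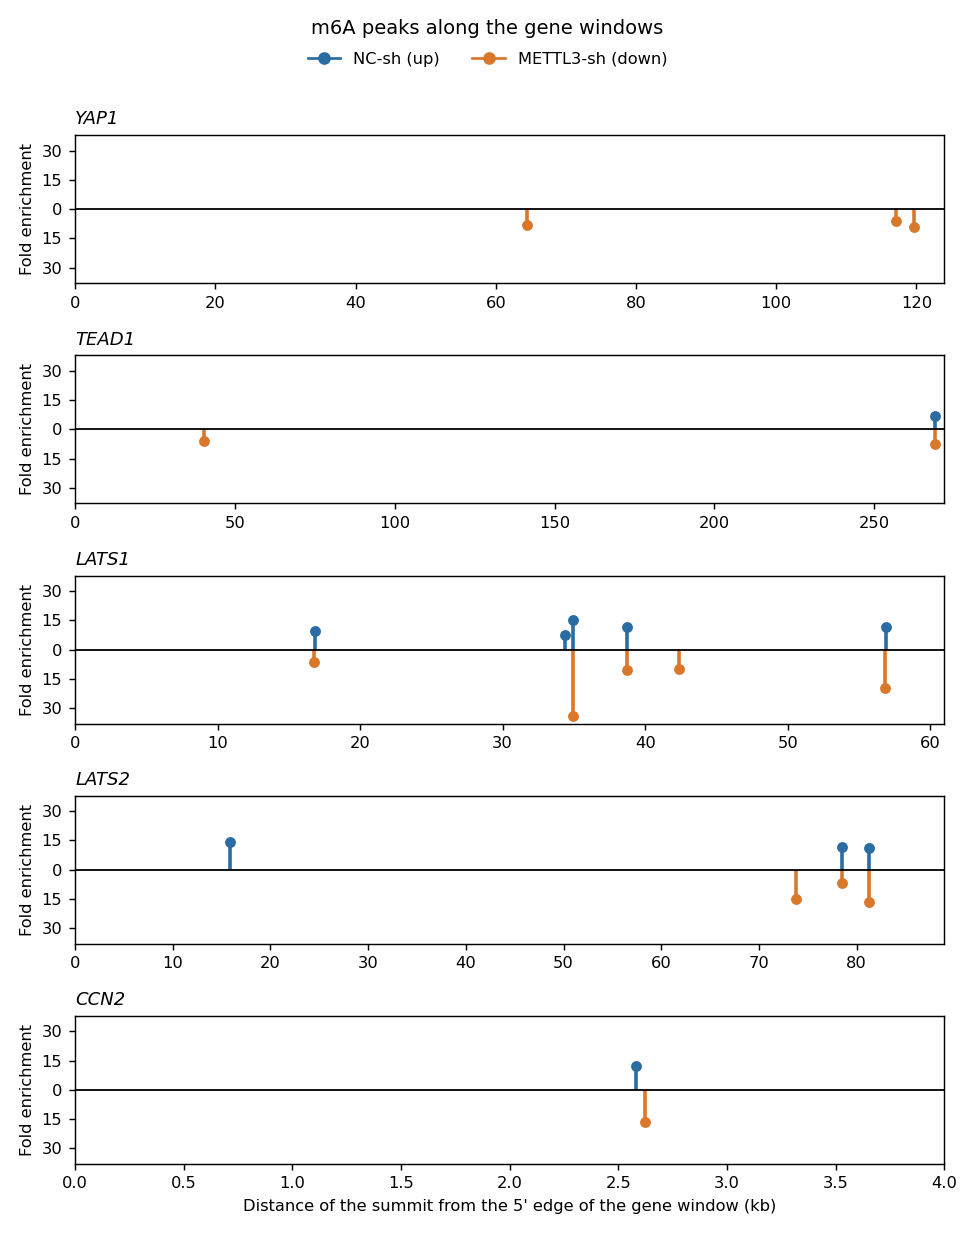
Fold enrichment over Input (vertical axis) of each listed peak against the distance of its summit from the 5′ edge of the gene window in kb (horizontal axis), with NC-sh drawn upward in blue and METTL3-sh downward in orange. YAP1 has 3 peaks downward only, LATS1 has 4 places with a peak in both directions, and the tallest peak is LATS1 at 35.0 kb in METTL3-sh with a fold enrichment of 34.3.

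YAP1 (chromosome 11, 101981 to 102105 kb, plus strand), the main effector of the pathway, had 3 peaks in METTL3-sh and none listed in NC-sh. The strongest, at chr11:102100359-102100875 (hg19), held 2732 reads (2631 to 2836), a pileup of 993, with a local expectation of 109 and a fold enrichment of 9.04. It lay 4.4 kb from the 3′ edge of the 124 kb window. In reads it stood above 97.7% of all METTL3-sh peaks, and only 14 of the 5067 peaks called in METTL3-sh alone held more, whereas its fold enrichment stood above just 43.5% of the list. The YAP1 signal was thus high in reads and ordinary in enrichment.

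A second YAP1 peak lay nearby at chr11:102098013-102098501, with 405 reads, an expectation of 23 and a fold enrichment of 6.18, close to the limit of the list. The third, at chr11:102045363-102045583 in the middle of the window, held 37 reads (26.1 to 51.0), with an expectation of 0.8 and a fold enrichment of 8.03. Only a TEAD1 peak held fewer reads among the 24. Whether YAP1 lacked these peaks in NC-sh cannot be read from the lists alone. Peaks carry running numbers with gaps, so some were numbered and not listed. In NC-sh 3 numbers are missing between the listed peaks on both sides of YAP1, which lie 326.5 kb apart, and such peaks may have stood in YAP1 or beside it.

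WWTR1 (chromosome 3, 149235 to 149455 kb, minus strand) encodes TAZ, the paralogue of YAP. Neither list held a peak in its 220 kb window. The nearest listed peaks were 147.6 kb before and 672.6 kb after the window in both libraries, and 4 numbers are missing in that span in each. The lack of a listed peak does not show that WWTR1 mRNA was unmethylated or not expressed, since its Input coverage was not analysed here.

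TEAD1 (chromosome 11, 12695 to 12967 kb, plus strand), the transcription factor through which YAP and TAZ reach DNA, shared 1 peak between the libraries near the 3′ edge of its 272 kb window, at chr11:12963905-12964498 in NC-sh. NC-sh had 331 reads and an expectation of 15 there, and METTL3-sh had 271 and 12.6. Fold enrichment was 6.83 and 7.30, a log2 ratio (METTL3-sh/NC-sh) of 0.09. In both libraries the TEAD1 peak belonged to the weakly enriched ones, above 13.5% and 23% of the lists. Its reads were 0.819 times as many in METTL3-sh (exact 95% interval 0.695 to 0.964), and the local expectation was lower as well.

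A further TEAD1 peak was listed in METTL3-sh alone, at chr11:12735156-12735355. With 27 reads (17.8 to 39.3), a length of 200 bp and a fold enrichment of 6.08, it had the fewest reads and the lowest fold enrichment of the 24 peaks and stood above 1.17% of the METTL3-sh list in the latter. No NC-sh number is missing between the listed peaks around it, so NC-sh had no numbered peak there.

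LATS1 (chromosome 6, 149979 to 150040 kb, minus strand) is one of the pair of kinases that phosphorylate YAP and TAZ directly. Its 61 kb window held 5 peaks in each library, at 6 places in all, with 4 called in both libraries. Counted from the 5′ edge, the shared peaks lay at 16.8, 35.0, 38.7 and 56.9 kb. Reads at the summit were higher in METTL3-sh at all 4, as they were in 62.5% of all pairs, whereas fold enrichment was higher at 2 and lower at 2.

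The most enriched LATS1 peak was the same in both libraries, at 35.0 kb (chr6:150004606-150005285 in NC-sh). NC-sh had a fold enrichment of 15.2 there and METTL3-sh of 34.3, a log2 ratio of 1.18, which lay above 93.6% of all 6863 pairs. Reads were 739 and 1036, a ratio of 1.4 (1.27 to 1.54), and the local expectation was 15 and 10. The log2 ratio of the reads alone was 0.49. The lower expectation also raised the ratio of fold enrichment, and whether it differed beyond counting error was not tested. In METTL3-sh the peak stood above 95% of the list in fold enrichment.

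At 56.9 kb, near the 3′ edge (chr6:149982961-149983441), NC-sh had a fold enrichment of 11.8 and METTL3-sh of 19.6, a log2 ratio of 0.73. Reads were 307 and 429, a ratio of 1.4 (1.20 to 1.62), with expectations of 7.60 and 7. This was the LATS1 peak at which the expectation differed least.

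The other shared LATS1 peaks went the opposite way in fold enrichment. At 38.7 kb (chr6:150001001-150001625) NC-sh had 11.7 and METTL3-sh 10.7, with 604 and 908 reads, a ratio of 1.5 (1.35 to 1.67), with expectations of 16 and 30. At 16.8 kb (chr6:150022981-150023407) NC-sh had 9.40 and METTL3-sh 6.45, with 198 and 228 reads, a ratio of 1.15 (0.948 to 1.4), with expectations of 6 and 12. Within the same gene the Input expectation was lower in METTL3-sh at some places and up to 2 times as high at others. The largest of these ratios rests on expectations of only 6 and 12. Whether the expectations differed beyond counting error was not tested.

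Peaks called in 1 library only stood beside these. In NC-sh a short peak of 239 bp at 34.4 kb (chr6:150005505-150005743) held 111 reads with a fold enrichment of 7.47. It began after the end of the most enriched LATS1 peak, and in METTL3-sh the nearest peak ended 198 bp before it. In METTL3-sh a peak at 42.4 kb (chr6:149997470-149998030) held 192 reads with a fold enrichment of 10.1. No number of the other library is missing between its listed peaks around either place, so neither peak had a numbered but unlisted counterpart.

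LATS2 (chromosome 13, 21547 to 21636 kb, minus strand), the paralogue of LATS1, had 3 peaks in each library at 4 places in its 89 kb window. The pairs lay toward the 3′ edge, at 78.5 and 81.3 kb from the 5′ edge. Fold enrichment was lower in METTL3-sh at the first and higher at the second.

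At 78.5 kb (chr13:21557329-21557776) NC-sh had a fold enrichment of 11.7 and METTL3-sh of 6.63, a log2 ratio of -0.82, below which only 7.26% of all pairs lay. Reads were 678 and 508, a ratio of 0.749 (0.667 to 0.842), and the expectation was 18 and 27. This was the pair with the lowest ratio among the members, with fewer MeRIP reads and a higher expectation in METTL3-sh, the latter without an error estimate. At 81.3 kb (chr13:21554496-21555008) NC-sh had a fold enrichment of 11.1 and METTL3-sh of 16.6, a log2 ratio of 0.58, with 133 and 125 reads, a ratio of 0.940 (0.730 to 1.21). The reads were not apart beyond counting error, with expectations of 3 and 1.80.

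LATS2 also had the broadest member peak, called in METTL3-sh alone at 73.8 kb (chr13:21561976-21563569). It spanned 1594 bp, longer than 98.4% of the METTL3-sh list, and held 581 reads (535 to 630) with a fold enrichment of 15.2. The nearest NC-sh peak ended 4200 bp before it, and 1 NC-sh number is missing in the gap around it. A peak called in NC-sh alone lay toward the 5′ edge at 15.9 kb (chr13:21619685-21620292), with 199 reads and a fold enrichment of 14.4, the highest of LATS2 in that library. At its place 3 METTL3-sh numbers are missing, in a gap that reaches 2283614 bp beyond it. For both of these places an unlisted counterpart cannot be told apart from none.

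CCN2 and CCN1 are the most widely used readouts of YAP and TAZ activity. CCN2 (chromosome 6, 132269 to 132273 kb, minus strand) had 1 peak, called in both libraries at chr6:132269819-132270617, which covered 799 bp of its 4 kb window in NC-sh and 807 bp in METTL3-sh. It held 3158 reads (3049 to 3270) in NC-sh and 5447 (5303 to 5594) in METTL3-sh, more than any other member peak of the same library. Reads were 1.72 times as many in METTL3-sh (1.65 to 1.80), a log2 ratio above that of 92.6% of all pairs. The expectation was 82 and 118, also higher in METTL3-sh. Fold enrichment was 12.5 and 16.7, a log2 ratio of 0.42. Both the MeRIP reads and the expectation of CCN2 were higher in METTL3-sh, as both medians of all pairs were, and the amount of RNA was not analysed here.

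CCN1 (chromosome 1, 86046 to 86050 kb, plus strand), which encodes a close relative of CCN2, had no listed peak in its 4 kb window. The nearest listed peaks lay 85.1 kb before the window in NC-sh and 85.2 kb in METTL3-sh, with 1 number missing around the window in each. The pair of classical YAP targets therefore differed in the lists, with a peak above 98% (NC-sh) and 99.4% (METTL3-sh) of the lists in reads for CCN2 and none for CCN1.

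**Figure D2:**
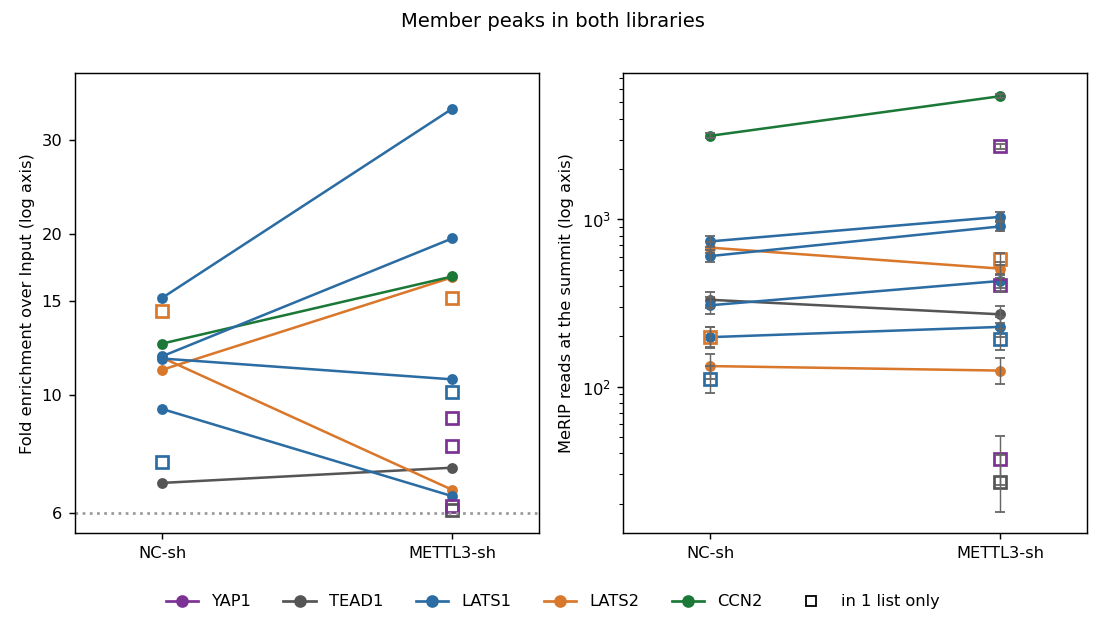
Fold enrichment (left) and MeRIP reads at the summit (right, with exact 95% Poisson intervals), both on log axes, of the member peaks in NC-sh and METTL3-sh. Lines join the 8 pairs, open squares are the 8 peaks of 1 list only, colours give the gene, and the dotted line marks the fold enrichment of 6 above which peaks were listed. CCN2 is the highest in reads in both libraries, whereas LATS1 is the highest in fold enrichment.

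Ordered by the reads at the strongest summit, NC-sh had CCN2 (3158), LATS1 (739), LATS2 (678) and TEAD1 (331). LATS1 and LATS2 were not apart beyond counting error, with intervals of 687 to 794 and 628 to 731. In METTL3-sh the order was CCN2 (5447), YAP1 (2732), LATS1 (1036), LATS2 (581) and TEAD1 (271), and no intervals of neighbours overlapped. Ordered by the highest fold enrichment instead, NC-sh had LATS1 (15.2), LATS2 (14.4), CCN2 (12.5) and TEAD1 (6.83). In METTL3-sh LATS1 (34.3) was followed by CCN2 (16.7), LATS2 (16.6), YAP1 (9.04) and TEAD1 (7.30). TEAD1 was last in every order. Fold enrichment has no error estimate here, so close neighbours such as CCN2 and LATS2 in METTL3-sh cannot be ranked.

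Across the 8 pairs, fold enrichment was higher in METTL3-sh in 5 (62.5%) and lower in 3, with a median log2 ratio of 0.26. Over all pairs of the lists it was higher in 58.9%, with a median of 0.13 and an SD of 0.67. Fold enrichment was at least 1.5 times as high in 2 member pairs (25%), both in LATS1, where 22.9% of all pairs were. It was at least 1.5 times lower in 1 (12.5%), in LATS2, where 12.8% of all pairs were. The shares of the members were thus close to those of all pairs. The 4 LATS1 log2 ratios ran from -0.54 to 1.18.

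**Figure D3:**
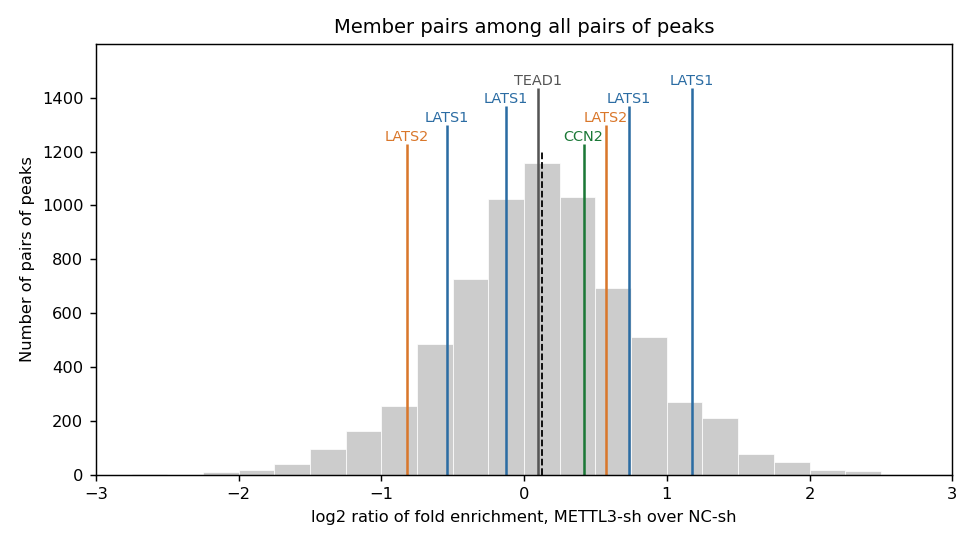
Number of pairs of peaks (vertical axis) by the log2 ratio (METTL3-sh/NC-sh) of fold enrichment in steps of 0.25 (horizontal axis) for the 6863 pairs. Coloured lines mark the 8 member pairs and the dashed line the median of all pairs at 0.13, and the members are spread on both sides of it from -0.82 to 1.18.

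Reads and fold enrichment pointed in opposite directions in 4 of the 8 pairs (50%), compared with 32.1% of all pairs. These were TEAD1, LATS1 at 16.8 and 38.7 kb and LATS2 at 81.3 kb. Reads were at least 1.5 times as many in METTL3-sh in 2 pairs (25%), CCN2 and LATS1 at 38.7 kb, where 14.9% of all pairs were. None was at least 1.5 times lower, where 5.43% of all pairs were. The interval of the read ratio lay above 1 in 4 pairs (50%), CCN2 and 3 of LATS1, where that of 37.8% of all pairs did. It lay below 1 in 2 (25%), TEAD1 and LATS2 at 78.5 kb, where that of 17.5% of all pairs did. It spanned 1 in LATS1 at 16.8 kb and LATS2 at 81.3 kb. These ratios are not corrected for depth, and the median read ratio over all pairs was 1.10. In the deposited pileup, 4 member pairs were at least 1.5 times as high in METTL3-sh and 0 as much lower, where 23.8% and 2.7% of all pairs were. In −log10 q, 4 were higher and 1 lower by that factor, where 35.4% and 9.06% of all pairs were.

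**Figure D4:**
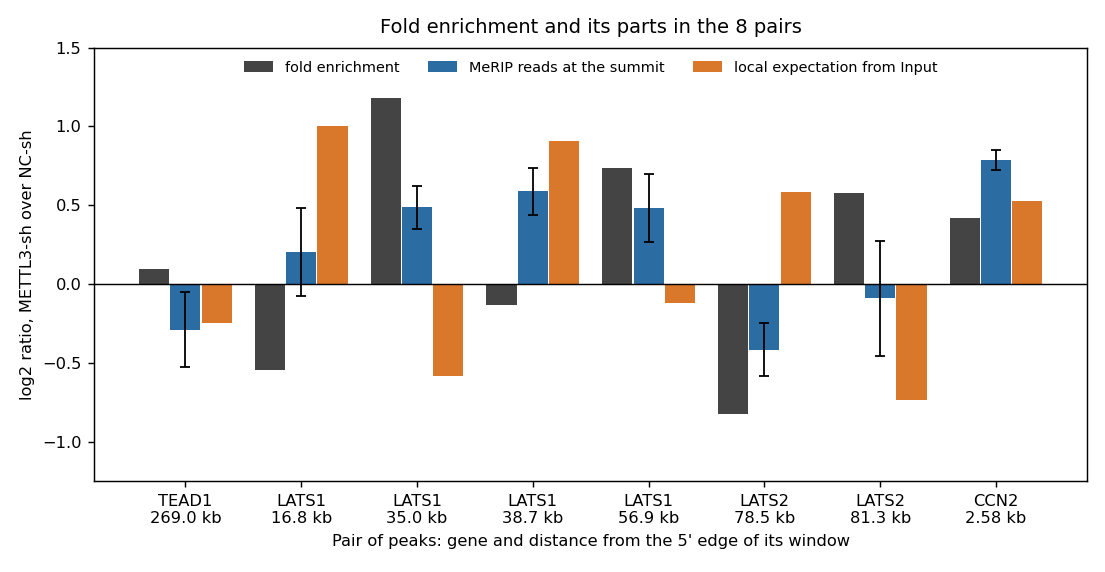
The log2 ratio (METTL3-sh/NC-sh, vertical axis) of fold enrichment, of MeRIP reads at the summit (bars with exact 95% intervals of counting error) and of the local expectation from Input for each of the 8 pairs, named by gene and distance in kb from the 5′ edge of its window. At LATS1 16.8 and 38.7 kb and LATS2 78.5 kb the expectation bar is the highest of the 3 and fold enrichment is below 0. Bars do not add up exactly, since pileup is scaled per library by steps that differ by 0.15 on the log2 scale and 1 is added to pileup and expectation in fold enrichment.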

How the data were processed

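MeRIP-seq of H1975 cells was described with 1 MeRIP library per condition, called against 1 Input library each. The submitters' processing notes name bcl2fastq, TopHat2 2.0.13, MACS2 2.1.0.20151222 and hg19, and the filters are not given in the sources used here. The authors deposited for each peak a pileup, which is a coverage signal on a scale of its library. They also deposited fold enrichment, a ratio formed after adding 1 to pileup and to the local expectation, and the −log10 of p and q. Reads at the summit were pileup divided by its step (0.327 in NC-sh, 0.364 in METTL3-sh). Below a pileup of 300, values lay within 0.0054 (NC-sh) and 0.00519 (METTL3-sh) of whole multiples of the step. A Poisson −log10 p from pileup and expectation, which checks these and not the reads, matched the deposited one within 0.02 in 89.3% (NC-sh) and 86.3% (METTL3-sh) of peaks. The libraries' depth is unknown, and summits held at least 25 and 24 reads.

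Peaks were assigned by summit to hg19 windows given in kb. Pairs are peaks that overlapped, by at least 1 bp, only each other. With 1 library per condition no test was made. Read ratios have Clopper-Pearson intervals, which like all intervals here cover counting error only. Genes, windows and steps were chosen with earlier results of these data known. All peaks of the 7 genes are named. Transcript direction came from RefSeq (GRCh38.p14), except for TEAD1 and CCN1, where it is textbook knowledge. No hg19 exons or sequence were used, so exons, UTRs and the GGAC motif were not analysed here, nor were other Hippo genes. In RefSeq, genes overlap all members except CCN1 (such as CCN2-AS1, TEAD1-AS1, WWTR1-AS1 and YAP1-DT), and peaks carry no strand, so reads of these cannot be told apart. Pairing and the pileup step were tried on simulated data made from the NC-sh list, with peaks slightly shifted and their lengths unchanged. This could not show how pairing works where peaks differ in length, split or merge. Software was numpy 2.4.6, scipy 1.17.1, pandas 2.3.3 and matplotlib 3.10.9 under Python 3.11.15.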

Additional observations from a re-analysis of the deposited data

How the results depend on the processing

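Widening the windows by 5 kb and assigning peaks by any overlap left the counts of member peaks, shared peaks and pairs and the median ratio as reported. Requiring an overlap of 50% of both peaks or summits within 100 bp left the counts of shared peaks and pairs and the median ratio as reported, and pairing each NC-sh peak with its strongest partner the number of pairs and the median. With a fold enrichment of at least 12, 3 NC-sh and 5 METTL3-sh peaks passed, of which 2 and 2 overlapped, in 2 pairs. Both of these were higher in METTL3-sh, 1 by at least 1.5-fold and 0 lower, with a median log2 ratio of 0.80 (0.10 over all pairs). Of the 2687 pairs of the lists at this filter, 20% were at least 1.5-fold higher and 11.9% at least 1.5-fold lower. With −log10 q at or above the median of both lists (36.6), the median was 0.095, as over all pairs. Using −log10 q as the measure it was 0.56 with 4 of 8 pairs at least 1.5-fold higher, where all pairs had a median of 0.33 and 35.4% higher. Using pileup it was 0.49 with 4 higher and 0 lower, where all pairs had 0.28, 23.8% and 2.7%. Reads gave 0.34 with 0 lower, where all pairs had 0.13 and 5.43%. Division by the median ratio of all pairs, chosen after the data were seen, gave 0.13 with 2 lower, where 17.2% of all pairs were. The measure turned the direction of 4 pairs. TEAD1 had a log2 ratio of -0.057 by −log10 q, -0.14 by pileup, -0.29 by reads and -0.032 relative to all pairs. LATS2 at 81.3 kb had -0.089 by reads, whereas pileup (0.062) and −log10 q (0.47) kept its direction. LATS1 at 38.7 kb had 0.65 by −log10 q, 0.74 by pileup and 0.59 by reads, and LATS1 at 16.8 kb had 0.36 by pileup and 0.20 by reads. The local expectation enters fold enrichment and not pileup or reads, and reads are pileup divided by the step of its library. Why these directions turned was not tested. No paired analysis was possible because there was a single MeRIP library for NC-sh and for METTL3-sh. The weakest member peaks rest on few reads, YAP1 on 37 and TEAD1 on 27, and the depth of the libraries is not known.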
